A study of Mus musculus with 4 samples.

Results

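The 10 genes described here encode parts of the smooth muscle contractile apparatus or proteins bound to it. They are Acta2, Actg2, Tagln, Cnn1, Myh11, Synpo2, Smtn, Des, Mylk and Tpm2, and they were taken by name: every probe on the array that carried one of these symbols was used. All 10 were measured and tested, among 29924 gene names on the array and 22461 genes tested. They are covered by 15 of the 39429 gene probes.

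The contractile apparatus of a smooth muscle cell pulls filaments of actin and tropomyosin past filaments of smooth muscle myosin, and the pull starts when myosin light chain kinase phosphorylates the myosin light chain. In the ureter these cells arise from the mesenchyme around the epithelial tube and later drive the peristalsis that carries urine from the kidney to the bladder. During smooth muscle differentiation Acta2 and Tagln are known as early genes, while Myh11 and Smtn are known as late ones.

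Ureters of wildtype NMRI mouse embryos were dissected at E12.5 and grown as explants on membranes for 18 h, in serum-free medium with either 10 µM IWP-2 or the solvent DMSO. IWP-2 inhibits Porcupine, an acyltransferase that WNT ligands need for secretion, so that it acts on the epithelium and the mesenchyme of the explant alike. The comparison asks how these genes respond when WNT secretion is blocked for this time. RNA from 1 pool of treated and 1 pool of control ureters was hybridized to each of 4 two-color Agilent arrays, and the treated RNA was labeled red on arrays 1 and 3 and green on arrays 2 and 4. The sex of the embryos was not determined, and the ureters of a pool were not measured apart. The labels number the pools 1 to 4 in each group, and each array is taken here as a pair of pools of its own. The paper is not uniform on how many pools and arrays there were, and if arrays share pools as dye swaps, the p-values below are too small.

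Raw gene spots had array medians of 368 to 711 for control RNA and of 385 to 694 for treated RNA, over a local background with medians of 28 to 77. All 15 probes of the 10 genes were well above background in both pools of all 4 arrays, and none was saturated. Signals below are normalized intensities that contain an added offset of 50, so that changes of dim probes are understated. They are given in the order of arrays 1 to 4, and they are not ranked between genes, because a probe's brightness also depends on its sequence. Ratios, treated over control, are on the log2 scale and are given as the mean ± SD of 4 arrays. Adjusted p is that of limma after Benjamini-Hochberg correction over the 22461 genes, two-sided. The fit held a dye term, so p rests on the spread that limma estimates within each dye order. The SD also contains the difference between the dye orders and is not the spread behind p.

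The response was a reduction of most of the genes, graded from 1.98-fold for Cnn1 down to none for Des. Of the 10 genes 8 were lower past the test, namely Cnn1, Actg2, Tagln, Mylk, Acta2, Tpm2, Synpo2 and Myh11. Smtn was higher, by little, and Des passed in neither direction. Of all genes tested 14.9% were lower and 18.1% were higher, 33% together, so that changes were common on these arrays. The median over the 10 genes was -0.45, against 0.00 over all genes tested. On the single arrays this median was -0.33, -0.32, -0.51 and -0.45 (SD 0.09). Below 0 on all 4 arrays were 8 of the 10 genes, the same 8, against 21% of all genes tested. In 7 of the 10 genes, all but Myh11, Des and Smtn, the highest treated signal was below the lowest control signal. This held for 11.5% of all genes tested. Both counts come from the same arrays as the test and add no separate support. The arrays measured whole ureters, so that fewer smooth muscle precursors and less RNA per cell cannot be told apart.

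**Figure D1:**
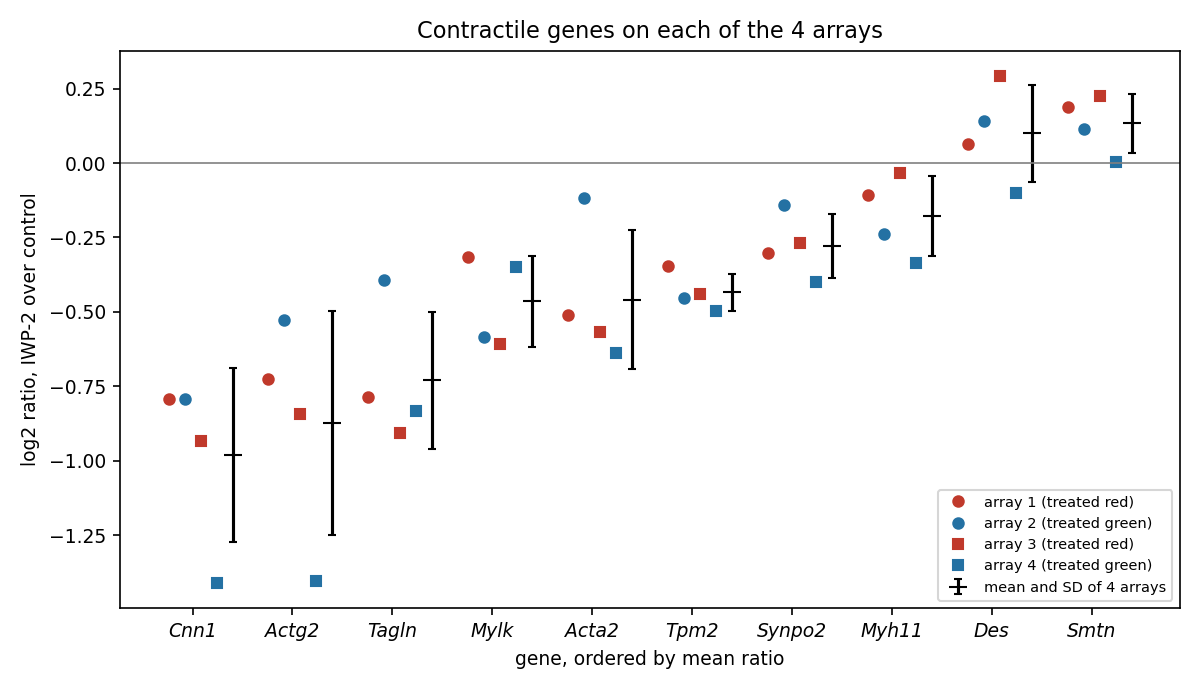
Log2 ratio of IWP-2 over control for the 10 contractile genes, ordered by the mean. Points are the 4 arrays (red, treated RNA labeled red; blue, treated RNA labeled green), black marks the mean and the SD. Cnn1, Actg2 and Tagln lie lowest, Tpm2 has the narrowest spread, and Des and Smtn lie at or above 0 on all arrays but array 4, where Des is at -0.10.

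The promoters are described before the single genes, for the sites of 2 kinds of transcription factor. The CArG box, the site bound by serum response factor, and the TCF/LEF core CTTTGAT, the site bound by the nuclear partners of β-catenin, were searched on both strands in windows from 250 bases before to 50 bases after the start site (RefSeq, GRCm38.p6). Windows were given for 7 of the 10 genes, Acta2, Cnn1, Synpo2, Smtn, Des, Mylk and Tpm2. A full CArG box was found in none of the 7 and in 1.63% of all 32851 windows. With 1 G or C allowed in its A/T core it was found in Acta2 alone, at 2 places that began 84 and 34 bases before the start site, and in 9.98% of all windows. The TCF/LEF core was found in none of the 7 and in 3.73% of all windows. The 250 bases before the start site are shown for Acta2 (minus strand, chr19:34255374-34255623), whose CArG-like matches are in capitals, and for Cnn1 (plus strand, chr9:22099003-22099252), the gene with the largest fall, which held no match.
Acta2: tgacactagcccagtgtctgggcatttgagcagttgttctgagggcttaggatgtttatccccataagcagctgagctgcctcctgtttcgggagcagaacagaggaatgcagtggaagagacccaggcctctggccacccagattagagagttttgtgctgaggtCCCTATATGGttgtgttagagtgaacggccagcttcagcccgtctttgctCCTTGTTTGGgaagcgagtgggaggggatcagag
Cnn1: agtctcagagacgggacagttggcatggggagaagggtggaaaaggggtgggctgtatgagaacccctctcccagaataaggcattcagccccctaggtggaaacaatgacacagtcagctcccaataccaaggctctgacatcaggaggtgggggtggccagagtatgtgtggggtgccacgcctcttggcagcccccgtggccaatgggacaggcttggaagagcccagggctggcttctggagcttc
The windows are short, and a letter match does not show that a factor binds there.

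The thin filament is built from actin and tropomyosin. Acta2, the smooth muscle α-actin of vessels and visceral walls, had control signals of 12050, 12270, 12400 and 18030 and treated signals of 8459, 11310, 8357 and 11580. The groups did not overlap, but on array 2 the treated pool came close to its control and the ratio there was only -0.12, against -0.51, -0.57 and -0.64 on arrays 1, 3 and 4. The mean ratio was -0.46 ± 0.23 (adjusted p = 0.00789), a 1.38-fold reduction. Its probe lies on the minus strand of chr19:34316060-34316119 (mm9, the build of the array files and of all probe positions here).

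Actg2, the smooth muscle γ-actin of the gut and the urinary tract, fell further. Its control signals were 847, 990, 935 and 1499, and its treated signals 513, 687, 522 and 567. The treated pools lay within a narrow band, and the control pool of array 4 stood above the other control pools. The ratios were -0.72, -0.53, -0.84 and -1.40, with a mean of -0.87 ± 0.38 (adjusted p = 0.00389), a 1.83-fold reduction (chr6:83462904-83462963). Of the 10 genes Actg2 had the widest spread between arrays.

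Tpm2, the β-tropomyosin that winds around muscle actin filaments, had control signals of 6604, 7489, 7425 and 7898 and treated signals of 5195, 5472, 5467 and 5600. The groups were clearly apart, and the ratios lay close together at -0.35, -0.45, -0.44 and -0.50. The mean was -0.43 ± 0.06 (adjusted p = 0.000734), a 1.35-fold reduction, and the smallest SD and the smallest adjusted p of the 10 genes (chr4:43532262-43532321). A second probe at chr4:43531276-43531335 gave -0.52 ± 0.08.

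Cnn1, Tagln and Smtn encode proteins that bind the actin filament. Cnn1, calponin 1, which restrains the actomyosin ATPase, had control signals of 1553, 1860, 1675 and 3112 and treated signals of 896, 1074, 877 and 1171. Each treated pool was below every control pool. The ratios were -0.79, -0.79, -0.93 and -1.41, with a mean of -0.98 ± 0.29 (adjusted p = 0.000892), a 1.98-fold reduction and the largest of the 10 genes (chr9:21913058-21913117). Of all genes tested, 0.766% had a ratio at or below that of Cnn1. The largest ratio, on array 4, went with the highest control signal and not with a low treated signal.

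Tagln, the gene of transgelin (SM22α), an actin-binding protein of early smooth muscle cells, had bright signals of 16300, 19500, 18550 and 22530 in the controls and of 9465, 14870, 9888 and 12640 after treatment. The groups did not overlap, and array 2 again showed the smallest difference. The ratios were -0.78, -0.39, -0.91 and -0.83, with a mean of -0.73 ± 0.23 (adjusted p = 0.00104), a 1.66-fold reduction (chr9:45738097-45738156).

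Smtn, smoothelin, which is bound to stress fibers of contractile smooth muscle, went the other way. Its control signals were 11070, 13160, 12480 and 12350 and its treated signals 12620, 14260, 14590 and 12370, so that the groups overlapped. The ratios were 0.19, 0.12, 0.23 and 0.00, with a mean of 0.13 ± 0.10, a 1.10-fold increase (chr11:3417530-3417589). This passed the threshold of 0.05 narrowly (adjusted p = 0.0488), and the call was lost under 13 of 15 other settings, among them the omission of any single array. A second, dimmer probe of Smtn at chr11:3420834-3420893 gave 0.06 ± 0.17, above 0 on arrays 1 and 3 and below 0 on arrays 2 and 4.

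Myh11 and Mylk encode the motor and its switch. Myh11, the smooth muscle myosin heavy chain and a late gene of differentiation, was dim in all pools, with control signals of 151, 181, 167 and 182 and treated signals of 140, 153, 163 and 145, of which the offset makes up 50. The groups overlapped. The ratios were -0.11, -0.24, -0.03 and -0.33, with a mean of -0.18 ± 0.13 (adjusted p = 0.0189), a 1.13-fold reduction (chr16:14202190-14202249). The 2 dye orders differed: the mean was -0.07 on arrays 1 and 3 and -0.29 on arrays 2 and 4. The call was lost under 7 of 14 other settings, among them arrays 1 and 3 alone (adjusted p = 0.499) and the omission of array 1 or of array 4 (adjusted p = 0.0799 and 0.0832). With an offset of 10 the ratio was -0.24 (adjusted p = 0.0132).

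Mylk, the myosin light chain kinase, had control signals of 404, 454, 501 and 395 and treated signals of 324, 303, 329 and 310. The treated pools lay close together and below every control pool. The ratios were -0.32, -0.59, -0.61 and -0.35, with a mean of -0.46 ± 0.15 (adjusted p = 0.00312), a 1.38-fold reduction (chr16:35001266-35001325). A second probe at chr16:34953958-34954017, dimmer at 178 to 201, gave 0.01, 0.03, -0.03 and -0.15, with a mean of -0.04 ± 0.08. The 2 probes thus differed on each array, and the reduction of Mylk rests on the brighter probe.

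Synpo2 and Des belong to structures that anchor and link the filaments. Synpo2, an actin-bundling protein of Z-discs and dense bodies (myopodin), had control signals of 1265, 1313, 1494 and 1435 and treated signals of 1027, 1190, 1239 and 1088, without overlap. The ratios were -0.30, -0.14, -0.27 and -0.40, with a mean of -0.28 ± 0.11 (adjusted p = 0.00926), a 1.21-fold reduction (chr3:122779459-122779518). Of its other probes, that at chr3:122782094-122782153 gave -0.16 ± 0.05 and was below 0 on 4 of 4 arrays. The dimmest, at chr3:122815498-122815557, gave -0.02 ± 0.10.

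Des, the gene of the muscle intermediate filament protein desmin, had control signals of 425, 437, 390 and 516 and treated signals of 444, 482, 478 and 482. The treated pools lay within the range of the control pools. The ratios were 0.06, 0.14, 0.29 and -0.10, with a mean of 0.10 ± 0.16 (adjusted p = 0.248). The 95% confidence interval of the mean reached from -0.04 to 0.24, so that a reduction like that of Tpm2 or Acta2 lies outside it. The probe of Des maps to a span of 226 bases (chr1:75363404-75363629) and not to a single stretch of 60, the length of the other probes.

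**Figure D2:**
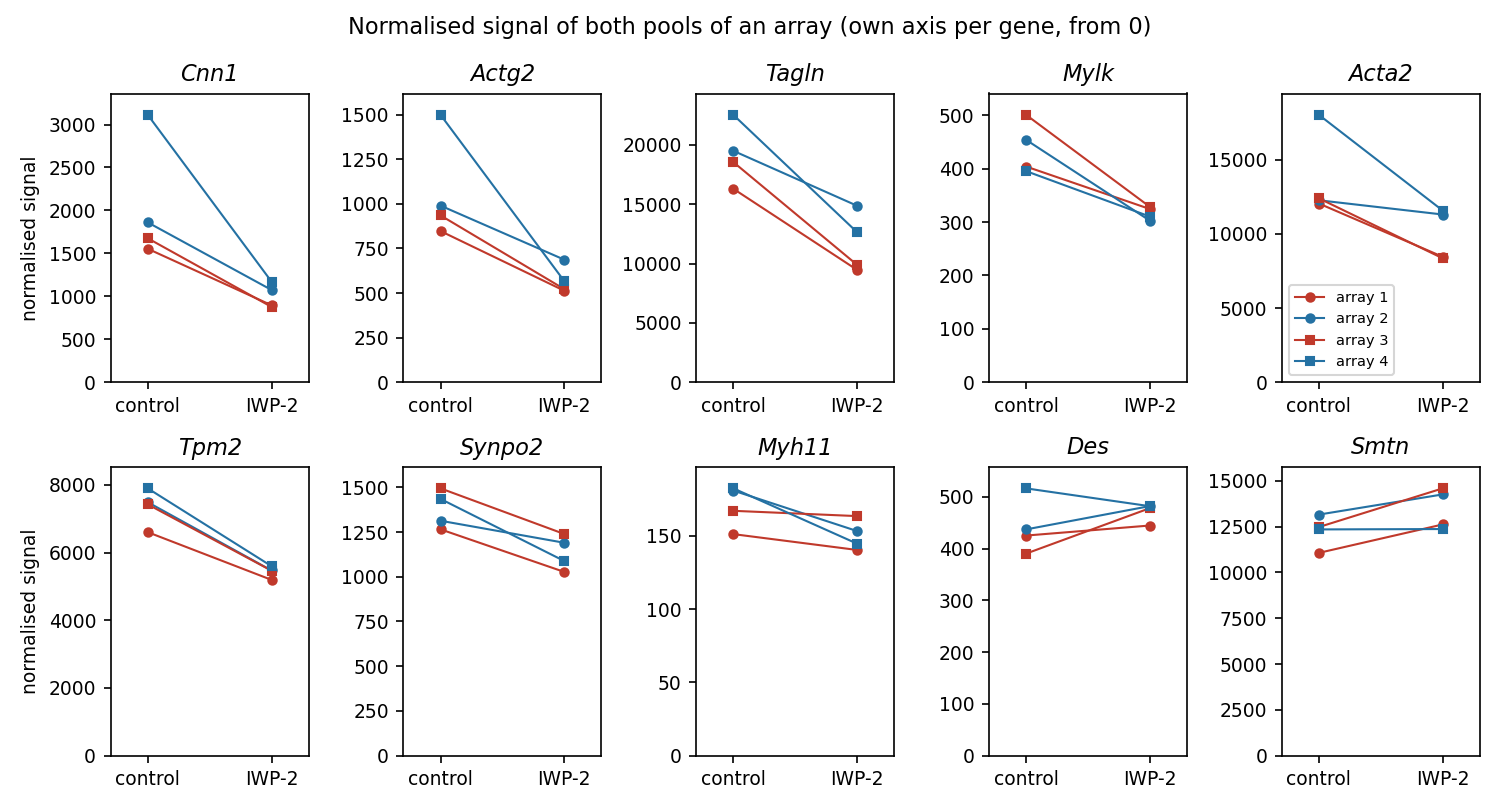
Normalized signal of the control pool and the IWP-2 pool of each array, joined by a line, for each of the 10 genes. Each gene has its own linear axis from 0, and colors and symbols mark the arrays as in the plot of ratios. The lines fall for 8 genes, and the lines of Des and Smtn rise on arrays 1 to 3. The control signal is highest on array 4 for Cnn1, Actg2, Acta2, Tagln, Tpm2, Des and, by little, Myh11.

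Ordered by the mean ratio, the genes ran from Cnn1 through Actg2, Tagln, Mylk, Acta2, Tpm2, Synpo2, Myh11 and Des to Smtn. Most neighbors in this order differed by less than the SD of their difference over the 4 arrays. The exceptions were Tpm2 against Synpo2, with a difference of 0.16 ± 0.12, and Myh11 against Des, with a difference of 0.28 ± 0.09. Cnn1 and Actg2 were 0.11 ± 0.11 apart, and Mylk and Acta2 0.01 ± 0.34. The early genes Acta2 and Tagln had ratios of -0.46 and -0.73, and the late genes Myh11 and Smtn of -0.18 and 0.13. Cnn1 (-0.98) and Actg2 (-0.87), with the largest falls, were placed in neither class. Myh11 was dim and the call of Smtn was lost under most other settings, so no order by stage is drawn from these 4 genes. The place of Myh11 depended on the processing. With the processed signals it was -0.32 and with the series table of fold changes -0.33, below Synpo2 in both (-0.26 each).

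The arrays did not weigh alike on all genes. Array 2 gave the ratio closest to 0 for Acta2, Tagln, Actg2 and Synpo2, and for Cnn1 about level with array 1. The lowest ratio came from array 4 for Cnn1, Actg2, Acta2, Tpm2, Synpo2, Myh11, Des and Smtn. Tagln was lowest on array 3, and Mylk, which followed neither order, was lowest on arrays 2 and 3. Replicate spots of the probe used for each gene agreed within an array, with a median SD of 0.05 between spots. The median SD between arrays was 0.16 for the 10 genes, against 0.11 over all genes tested.

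**Figure D3:**
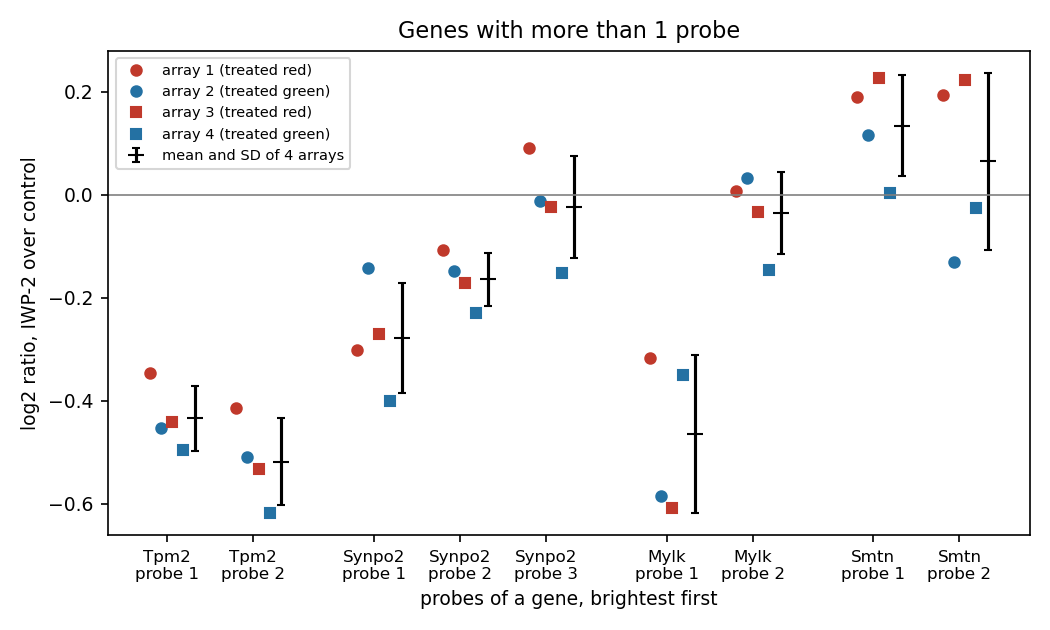
Log2 ratio of IWP-2 over control for each probe of the 4 genes that had more than 1 probe, brightest first. Points are the 4 arrays, black marks the mean and the SD. Both probes of Tpm2 lie below -0.34 on every array, whereas the second probe of Mylk and the third of Synpo2 lie around 0.

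A filter with the limits of the study, a signal above 100 together with more than 2-fold, was applied to each of the 4 arrays. The paper's results text describes fewer arrays per stage, whereas its methods give n = 4 for E12.5 explants with IWP-2. None of the 10 genes passed on 4 arrays. Cnn1 and Actg2 passed on 1 array each. With 1.5-fold as the limit Cnn1 passed on 4 arrays, Actg2 and Tagln on 3, and Mylk and Acta2 on 1. The share of all genes that passed these limits was not computed, so the counts do not show whether the 10 genes stand out.

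The pattern of the median over the 10 genes on the 4 arrays was compared with that of every other named gene, by the root mean square distance of the 4 log2 ratios. The 5 closest genes were Prss35 (distance 0.0227), T (0.0228), Grem1 (0.0326), Tubb6 (0.0385) and Tpd52l1 (0.0392), with mean ratios between -0.42 and -0.39. Of the 17852 tested genes with a symbol or synonym in RefSeq, the 10 included, 72 were closer than Tpm2, the closest of the 10 genes (0.0796).

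Other genes of the contractile apparatus and its membrane anchors changed in both directions. Of 24 such genes 22 were tested, and 8 were lower, 5 higher and 9 neither, with a median of -0.07. Lmod1 and Ckm were not above background. The lower genes included Nexn, an actin-binding protein of Z-discs (-0.74 ± 0.18, adjusted p = 0.000421), Hspb6, a small heat shock protein of smooth muscle (-0.52 ± 0.12, adjusted p = 0.00111), Ppp1r12a, the targeting subunit of myosin phosphatase (-0.43 ± 0.20, adjusted p = 0.00793), and Cald1, caldesmon (-0.40 ± 0.28, adjusted p = 0.00460). Myl9, the regulatory light chain that Mylk phosphorylates (-0.38 ± 0.22, adjusted p = 0.0156), and Csrp1, a LIM protein (-0.36 ± 0.03, adjusted p = 0.00114), fell as well. Myl9 (-0.09) and Cald1 (-0.07), like Acta2 and Tagln, had their ratio closest to 0 on array 2. Tpm1 (-0.19 ± 0.10) and Cacna1c, the pore of the L-type calcium channel (-0.20 ± 0.19), passed at adjusted p = 0.0189 and 0.0469. On array 1 Cacna1c was above 0 (0.08).

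Casq2, calsequestrin of the sarcoplasmic reticulum (0.55 ± 0.10, adjusted p = 0.000682), Smtnl2, a smoothelin-like protein (0.45 ± 0.10, adjusted p = 0.000716), and Pgm5, a protein of adherens junctions in muscle (0.41 ± 0.09, adjusted p = 0.00105), rose. Fhl1 (0.14 ± 0.05, adjusted p = 0.0379) rose by less. Smtn and Smtnl2, both of the smoothelin family, were thus both higher, Smtn with the reservation given above.

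The non-muscle relatives of the 10 genes, which most cells use for their cytoskeleton, had mean ratios between -0.29 and 0.30. Of 11 such genes 3 were lower (Cnn3 by -0.29 ± 0.09, adjusted p = 0.00346; Cnn2 by -0.14 ± 0.07, adjusted p = 0.0420; Myh10 by -0.13 ± 0.05, adjusted p = 0.0428), 2 were higher (Synpo by 0.30 ± 0.12, adjusted p = 0.00835; Myh9 by 0.26 ± 0.22, adjusted p = 0.0213), and 6 passed in neither direction. The median was -0.08. Myh9 was below 0 on array 3 (-0.04). Synpo2 (-0.28) and Myh11 (-0.18), among the lower of the 10 genes, lay within the range of this list. The cytoplasmic actins Actb (-0.18 ± 0.32) and Actg1 (0.06 ± 0.35) did not pass, with ratios that were above 0 in at least 1 array and below 0 in others.

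The striated muscle actins, in contrast, fell. Actc1, α-cardiac actin, had control signals of 21170, 19510, 19580 and 24160 and treated signals of 10860, 8999, 11940 and 10240, a ratio of -1.01 ± 0.23 (adjusted p = 9.18e-05). Acta1, α-skeletal actin, gave -0.49 ± 0.19 (adjusted p = 0.00431). All 4 muscle actins were thus lower. Their coding sequences are nearly alike, and whether the probes tell the transcripts apart was not tested. Of 13 genes of striated muscle 12 were tested and 5 were lower, the others being Tnni1 (-0.71 ± 0.23, adjusted p = 0.000716), Tnnt3 (-0.33 ± 0.11, adjusted p = 0.00421) and Tnnt1 (-0.26 ± 0.14, adjusted p = 0.0163). None was higher, and the median was -0.07. Myog was not above background and Myod1 was near it, at 136 to 260 in all pools. The summed signal of the list was 25020 to 30620 in the controls and 13240 to 16300 after treatment. Most of that sum was the signal of Actc1 alone (19510 to 24160 and 8999 to 11940), and 7 of the 12 genes passed in neither direction. The part of striated muscle in the result was not tested.

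**Figure D4:**
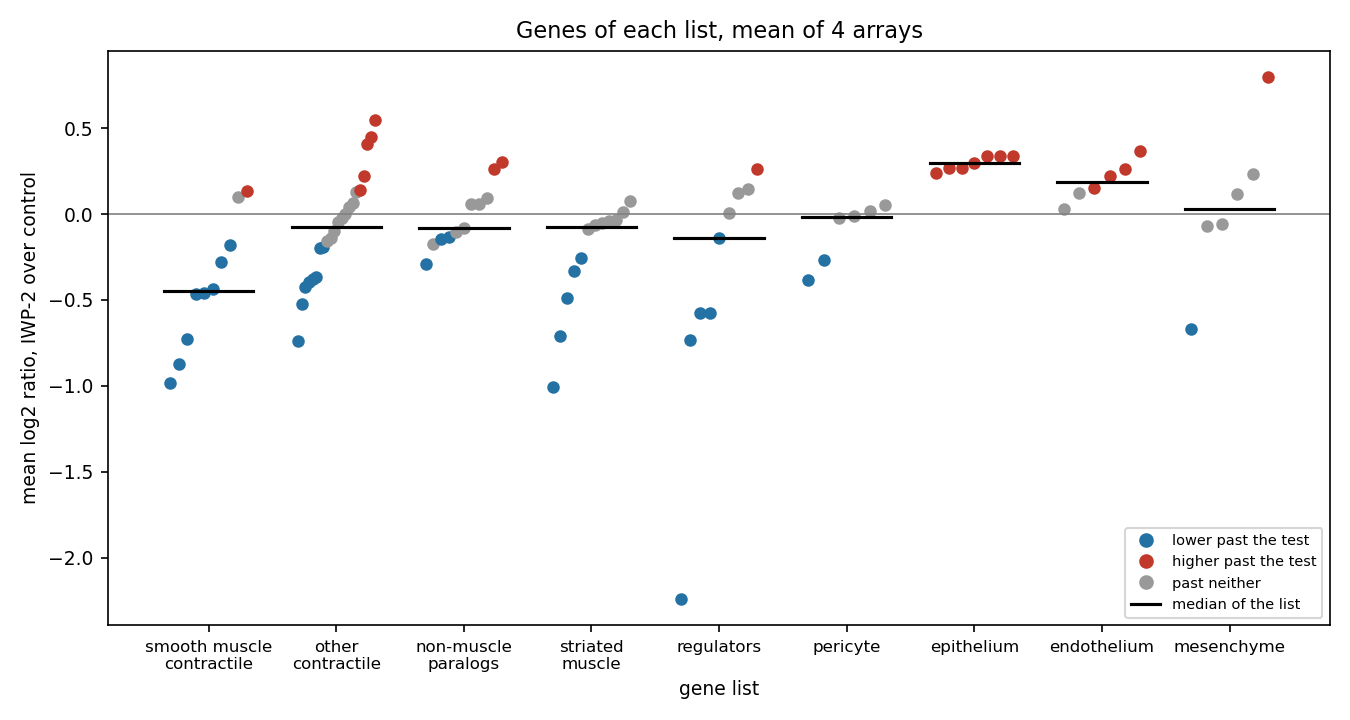
Mean log2 ratio of IWP-2 over control of each gene tested, by gene list. Points are genes, blue where lower past the test, red where higher and grey where neither, and bars are list medians. The median of the 10 contractile genes (-0.45) is the lowest, the 7 epithelium markers all lie above 0, and Foxf1, among the regulators, lies lowest of all genes shown.

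Regulators of smooth muscle differentiation were given beside these values. Of 9 genes 5 were lower, 1 was higher and 3 were neither, with a median of -0.14. Myocd, the coactivator of serum response factor that switches on contractile genes, was dim, with control signals of 221, 227, 217 and 209 and treated signals of 155, 140, 173 and 123, and fell by 0.58 ± 0.20 on the log2 scale (adjusted p = 0.000421). Foxf1, a forkhead factor of visceral mesenchyme (-2.24 ± 0.31, adjusted p = 4.69e-05), and the ureteric mesenchyme factors Tbx18 (-0.74 ± 0.26, adjusted p = 0.00171) and Sox9 (-0.57 ± 0.58, adjusted p = 0.0108) were lower, Sox9 on 3 of 4 arrays. Gata6 was lower by little (-0.14 ± 0.02, adjusted p = 0.0333). Klf4, known as a repressor of contractile genes, was higher (0.26 ± 0.20, adjusted p = 0.0283), but was below 0 on array 3 (-0.04). Srf itself (0.01 ± 0.20), Mkl1 (0.14 ± 0.18) and Mkl2 (0.12 ± 0.11), the other cofactors of serum response factor, did not pass.

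Markers of other cell types moved as well, and their part in the result was not tested. All 7 epithelium markers were higher, with summed signals of 179900 to 195200 in the controls and 205300 to 255300 after treatment. Of 6 endothelium markers 4 were higher and none was lower (sums of 51960 to 60460 and of 59540 to 69840). Of 6 pericyte markers 2 were lower, Rgs5 (-0.38 ± 0.21, adjusted p = 0.0144) and Cspg4 (-0.27 ± 0.23, adjusted p = 0.0326), and none was higher (sums of 34010 to 38990 and of 30300 to 33520). Cspg4 was above 0 on array 1 (0.07). Of 6 mesenchyme markers Pdgfrb was higher (0.80 ± 0.07, adjusted p = 9.34e-05), Tcf21 was lower (-0.67 ± 0.11, adjusted p = 0.000312) and 4 passed in neither direction, among them the collagens Col1a1, Col1a2 and Col3a1 (sums of 418300 to 470200 and of 436000 to 500300). Signal of epithelium and mesenchyme markers was present in both pools, at unequal levels for all 7 epithelium markers, Pdgfrb and Tcf21. The summed signal of the 10 contractile genes was 50680 to 67960 in the controls and 39090 to 49800 after treatment.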

How the data were processed

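The authors labeled cRNA with AlexaFluor647 (red) and AlexaFluor555 (green) and extracted spot intensities with Agilent Feature Extraction 10.7.3.1. Mean spot and median local background intensities, deposited as raw values, were corrected with normexp (offset 50) and normalized by loess within arrays (span 0.3) in limma 3.58.1 (R 4.3.3). Control spots and outlier spots (3.01% to 3.38% of gene spots) were left out, and the 4 spots of a probe were averaged. A gene was tested where more than 0.5 of the spots of its probe were well above background in the control or in the treated RNA of all 4 arrays, and its brightest probe stood for it. Ratios were fitted with lmFit and eBayes with a dye term. Signals of single pools are after Aquantile normalization. The deposited log10 ratio (red over green, of processed signals) was used to check direction only (Pearson r of 0.935 to 1.00 across spots), and the series table, deposited as signed fold changes per probe rounded by the authors, served as an alternative (r of 0.986 to 0.991 with the ratios of 17975 bright probes); its normalization is not given in the sources used here. All arrays came from 1 slide and 1 scan.

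The 10 genes and all gene lists were chosen with earlier results of these data known. All 10 genes are named with all their probes, and of the other lists those past the test, with counts for the whole list. The values of 1 gene past the test are not reported here. The analysis was tested on simulated data. The labels number the pools but do not say how the cultures were set up. The paper is not uniform on the number of pools, so p-values measure the spread between these arrays within each dye order.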

Additional observations from a re-analysis of the deposited data

How the results depend on the processing

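Under 15 other settings the 10 genes gave 148 values, none of which changed sign; 119 kept their side of the threshold and 29 lost it. The count of lower genes, 8 as reported, was 6 to 8 in all of these settings but the series table of fold changes, which left 1, Tpm2, with the other 7 between adjusted p of 0.0501 (Cnn1) and 0.147 (Acta2). Of all genes tested 9.13% were lower with the series table, so that 1 of 10 is near that share. The share was 9.19% to 17.2% in the other settings. Without each array in turn the count of lower genes ranged from 7 to 8. Of all genes tested 8.16% to 19.6% were higher in the 15 settings. The count of higher genes fell from 1 to 0 with processed signals, offset 10, median centring, the mean of all probes, no dye term, the series table, arrays 1 and 3 alone, arrays 2 and 4 alone and the omission of any array (0 to 0). The reported fit pairs the 2 pools of an array. With the 8 channels as separate samples and no such pairing or replicate block, 6 genes were lower and 0 higher, Acta2 (adjusted p = 0.0860) and Myh11 (0.111) being lost. The median of the 10 genes was -0.38 to -0.47 without each array and moved to -0.35 with the mean of all probes. On arrays 2 and 4 alone Acta2 (adjusted p = 0.0658) and Synpo2 (0.0515) were lost. With only probes over a mean signal of 100, Mylk and Myh11 were not tested. The limits of the study's filter, on all 4 arrays, passed 0 of the 10 genes at 2-fold and 1 at 1.5-fold, with no share of all genes computed. The cause of these changes was not tested. The 4 arrays limit the precision, and dim probes such as that of Myh11 stand little above background.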
